A study of Homo sapiens with 60 samples.

Results

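The comparison sets A549 cells that received the ethanol extract of Polygalae Radix, the root of Polygala tenuifolia, at 380 µg/mL against A549 cells that received the ethanol extract of Aucklandiae Radix, the root of Aucklandia (costus), at 370 µg/mL. A549 is an established human lung carcinoma line. The members are the 4 libraries whose titles name these extracts at the high dose, 2 per extract, of 60 libraries in the series. Both extracts were also given at a medium dose (76 and 74 µg/mL) and a low dose (15.2 and 14.8 µg/mL), with 2 libraries each, and all 12 libraries belong to library set 11. Cells were collected 24 h after the start of treatment, and 3 vehicle libraries (DMSO, given at different concentrations in the sample labels and in the series description) have library names outside that set. Per the series description, an extract whose IC20 in these cells lay below the usual top dose was given at its IC20 and at fixed dilutions of it, so the high doses were set extract by extract and are not the same mass per volume. No value of cell number or viability was used here.

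Polygala root is known for triterpenoid saponins and Aucklandia root for sesquiterpene lactones such as costunolide, which react with thiols. The gene groups followed here belong to the housekeeping of the cell (protein turnover, energy metabolism, cytoskeleton), to its stress responses, and to fast-responding regulators. The NR4A orphan nuclear receptors, which act without a known hormone, and the PER repressors of the circadian clock are both induced within a short time of a signal. In bulk RNA, fewer cells of a kind and less RNA per cell cannot be told apart, and every level below is a share of the library: CPM is a count scaled to a common library total (TMM-normalised unless called raw).

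The 4 libraries held 17113963 and 23298837 expected counts with Polygalae Radix and 26302658 and 28873673 with Aucklandiae Radix. Polygalae Radix high dose replicate 2, the shallowest library, stood apart. It had a high level of the gene ENSG00000282955 (above 10 CPM), as the vehicle libraries did, while the other 3 had a low one. Mitochondrially encoded mRNAs took 14.4% of its counts. That share was 6.17% in the other Polygalae Radix library and 4.68% and 5.21% in the Aucklandiae Radix libraries. The median gene differed by 0.23 log2 units between the 2 Polygalae Radix libraries and by 0.0653 between the 2 Aucklandiae Radix libraries. Results are therefore also given from a fit of the same libraries in which each group was split by a high or low level of that gene. The comparison was then taken between the low level means (called class 1 here), while the other libraries stayed in the fit. Class 1 holds 1 Polygalae Radix high dose library (replicate 3), so the spread of that group is taken from the other groups. The epithelial keratins KRT8 and KRT18 were abundant in all 4 libraries. The surfactant genes and NKX2-1 of the alveolar marker list were at or near 0 (SFTPA1 at 0 in all 4). On the same list LPCAT1 had 93.3 and 101 raw CPM with Polygalae Radix, against 67.4 and 64.6 raw CPM with Aucklandiae Radix. AGER, also on it, had 3.97 and 2.32 raw CPM with Polygalae Radix, against 1.63 raw CPM in both Aucklandiae Radix libraries. The leukocyte markers PTPRC, CD3E and MS4A1, the fibroblast marker DCN and the endothelial marker KDR were at 0 in all 4 libraries. Not all markers of these lists were absent. COL1A1, on the fibroblast list, had 18.8 and 14.2 raw CPM with Polygalae Radix, against 15.7 and 17.2 raw CPM with Aucklandiae Radix. COL3A1 had 2.51 and 3.3 raw CPM with Polygalae Radix, against 3.73 and 5.09 raw CPM with Aucklandiae Radix. The endothelial gene CDH5 reached 0.29 raw CPM, and CD14 and CD68 of the leukocyte list are given below.

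At the high dose the transcriptomes of the cells given the 2 extracts differed widely. Of 18396 genes tested, 10684 (58.1%) differed at an adjusted p under 0.05 in edgeR's quasi-likelihood test, 5178 (28.1%) higher and 5506 (29.9%) lower with Polygalae Radix. The libraries of the extracts did not overlap for 13642 genes (74.2%). A difference of at least 2-fold was reached by 1563 of the higher and 2323 of the lower genes, and one of at least 4-fold by 235 higher and 454 lower genes. In class 1, 4997 genes were higher and 5546 lower. The named genes that were highest with Polygalae Radix included the NR4A receptors and PER repressors, and those that were lowest included a vault protein, epithelial genes and an amino acid enzyme. Replicates may be technical, since no label states that they were separate cultures, and a p-value then covers only library-to-library spread.

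NR4A3, an orphan nuclear receptor, showed the largest rise among the named genes. It had 78.7 and 65.1 CPM with Polygalae Radix, against 3.2 and 3.87 CPM with Aucklandiae Radix. The difference was 4.34 ± 0.15 on the log2 scale (SE, adjusted p = 4.69e-26 in edgeR's test). Its relatives were higher too. NR4A2 had 45.7 and 32.7 CPM with Polygalae Radix, against 4.37 and 3.81 CPM with Aucklandiae Radix (log2 fold change 3.26 ± 0.19). NR4A1 had 127 and 95.1 CPM with Polygalae Radix, against 13.9 and 13.4 CPM with Aucklandiae Radix (3.02 ± 0.13). For NR4A3 and NR4A1 the means at the low doses and in vehicle lay between those at the 2 high doses, NR4A3 at 9.25 CPM at both low doses and 9.2 CPM in vehicle. NR4A1 averaged 35.3 CPM at the low dose of Polygalae Radix, 34.8 CPM at that of Aucklandiae Radix and 38.1 CPM in vehicle.

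Other genes high with Polygalae Radix code for feedback regulators and signalling proteins. DUSP8, a phosphatase of stress-activated MAP kinases, had 20.6 and 11.9 CPM with Polygalae Radix, against 1.39 and 1.53 CPM with Aucklandiae Radix (log2 fold change 3.47 ± 0.26). PER2, a repressor of the circadian clock, had 122 and 85 CPM with Polygalae Radix, against 18.6 and 18.3 CPM with Aucklandiae Radix (2.49 ± 0.15). IRS2, an adaptor of the insulin receptor, had 361 and 305 CPM with Polygalae Radix, against 62.1 and 69.4 CPM with Aucklandiae Radix (2.34 ± 0.10). The Polygalae Radix libraries lay above the Aucklandiae Radix libraries for each of the 12 genes shown in the plot of the most different genes, as the rule that picked them requires. The other genes there were LYPD1, DOC2B, RTN4RL2, PER3, FST (follistatin, which binds activins) and TAFA5, with log2 fold changes of 2.20 to 2.84. RTN4RL2 was the least even, with 340 and 149 CPM with Polygalae Radix against 42.1 and 46.5 CPM with Aucklandiae Radix. Its mean with Polygalae Radix, 244 CPM, was near that in vehicle, 242 CPM. From the low to the high dose it changed by 0.55 log2 units with Polygalae Radix (adjusted p = 0.0767 in edgeR's test). With Aucklandiae Radix it fell by 1.93 (adjusted p = 1.08e-06).

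**Figure D1:**
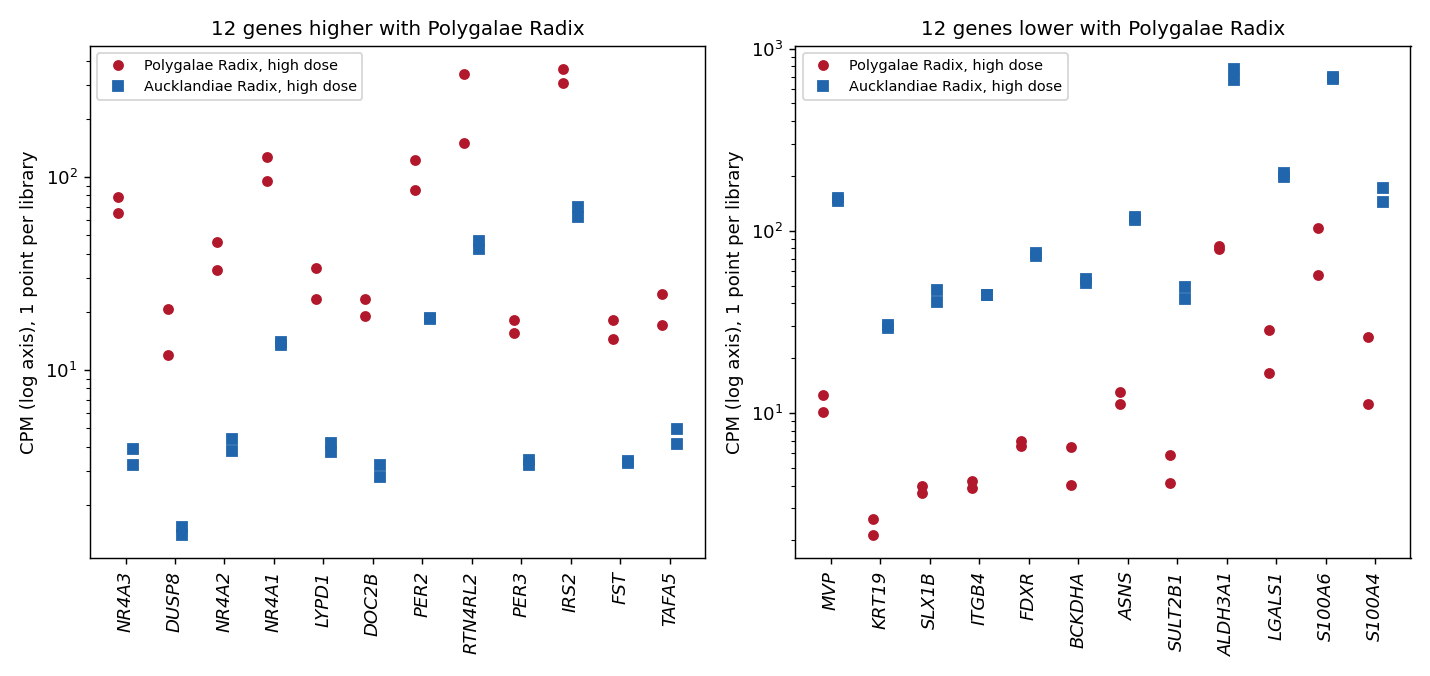
CPM per library on a log axis for the 12 genes with the highest and the 12 with the lowest log2 fold change under the naming rule, with 1 point per library (circles for Polygalae Radix, squares for Aucklandiae Radix). NR4A3 stands at 78.7 and 65.1 CPM with Polygalae Radix against 3.2 and 3.87 CPM with Aucklandiae Radix, and MVP at 10.1 and 12.5 CPM with Polygalae Radix against 152 and 145 CPM with Aucklandiae Radix.

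Among the genes low with Polygalae Radix, MVP, the main protein of the vault particle, had 10.1 and 12.5 CPM with Polygalae Radix, against 152 and 145 CPM with Aucklandiae Radix (log2 fold change -3.70 ± 0.10, adjusted p = 9.45e-29 in edgeR's test). KRT19, an epithelial keratin, had 2.14 and 2.63 CPM with Polygalae Radix, against 29.2 and 30.4 CPM with Aucklandiae Radix (-3.62 ± 0.16). ITGB4, the integrin subunit of hemidesmosomes, had 4.22 and 3.86 CPM with Polygalae Radix, against 44.7 and 44.6 CPM with Aucklandiae Radix (-3.47 ± 0.12). The rule that picked these 3 genes requires that the libraries of the extracts do not overlap. ASNS, which makes asparagine, had 13.1 and 11.2 CPM with Polygalae Radix, against 119 and 115 CPM with Aucklandiae Radix (-3.28 ± 0.09). FDXR, a mitochondrial reductase and p53 target, had 6.56 and 7.05 CPM with Polygalae Radix, against 75.7 and 72.9 CPM with Aucklandiae Radix (-3.44 ± 0.14). The 12 genes also hold BCKDHA, SULT2B1, ALDH3A1, the galectin gene LGALS1, the calcium-binding S100A6 and S100A4, and SLX1B. SLX1B shares reads with its near-identical copy SLX1A, so its value is uncertain.

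Promoter sequence was examined because the NR4A genes, PER2 and DUSP8 were among the most different genes. NR4A and PER genes are known to respond to CREB through cAMP response elements. The element was searched here only as the full sequence TGACGTCA, so shorter or variant forms were not counted. RefSeq windows of 250 bases before to 50 after the start (GRCh38.p14), 1 per gene, were searched on both strands for 7 short motifs, overlapping matches allowed. The windows matched 811 genes at least 2-fold higher, 1753 at least 2-fold lower and 12164 of all genes tested, and shares below are given in that order. The cAMP response element was in 3.33%, 2.91% and 3.17% of them, so the 3 shares were close. The ATF4 element TGATGNAAT was in 0.617%, 0.399% and 0.501%. The heat shock element GAANNTTC was in 4.56%, 5.48% and 4.69%. The NRF2 element TGACNNNGC was in 11.5%, 15.8% and 15.0%, lowest among the higher genes. The cell cycle element TTTGAA was in 11.3%, 8.67% and 10.0%. The NF-Y motif CCAAT was in 34%, 38% and 36%, and the AHR motif GCGTG in 48.5%, 45.1% and 49.7%. None of these shares was tested. The NR4A3, NR4A1 and PER2 windows, looked at first, hold no TGACGTCA and the ASNS window no TGATGNAAT, which says only that these letters are not in those windows, and NR4A2 was not among the windows. The windows below are NR4A3, as the gene with the largest rise, and DUSP8, JUND and PPP1R15A, which were picked after the search because they hold the element, in capitals. JUND codes for an AP-1 subunit and PPP1R15A for a subunit of the eIF2α phosphatase.
NR4A3 (chr9:99821635-99821934, + strand): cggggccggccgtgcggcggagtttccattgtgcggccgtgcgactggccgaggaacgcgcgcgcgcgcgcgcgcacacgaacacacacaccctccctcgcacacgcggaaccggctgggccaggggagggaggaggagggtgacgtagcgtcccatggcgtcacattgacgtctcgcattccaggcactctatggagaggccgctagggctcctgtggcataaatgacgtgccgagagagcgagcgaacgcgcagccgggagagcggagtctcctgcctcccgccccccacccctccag
DUSP8 (chr11:1572222-1572521, - strand): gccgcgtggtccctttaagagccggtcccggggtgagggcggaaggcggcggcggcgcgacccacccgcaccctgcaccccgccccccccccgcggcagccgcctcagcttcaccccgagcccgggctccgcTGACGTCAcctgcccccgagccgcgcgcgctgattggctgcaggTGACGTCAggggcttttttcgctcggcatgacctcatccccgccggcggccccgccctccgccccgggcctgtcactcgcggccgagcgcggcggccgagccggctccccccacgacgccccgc
JUND (chr19:18281573-18281872, - strand): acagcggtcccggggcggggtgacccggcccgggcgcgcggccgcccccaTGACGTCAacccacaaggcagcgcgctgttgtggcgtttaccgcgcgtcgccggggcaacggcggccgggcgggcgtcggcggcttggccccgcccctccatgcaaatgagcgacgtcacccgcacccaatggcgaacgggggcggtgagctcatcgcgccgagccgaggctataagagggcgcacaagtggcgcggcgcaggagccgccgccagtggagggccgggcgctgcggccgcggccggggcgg
PPP1R15A (chr19:48872171-48872470, + strand): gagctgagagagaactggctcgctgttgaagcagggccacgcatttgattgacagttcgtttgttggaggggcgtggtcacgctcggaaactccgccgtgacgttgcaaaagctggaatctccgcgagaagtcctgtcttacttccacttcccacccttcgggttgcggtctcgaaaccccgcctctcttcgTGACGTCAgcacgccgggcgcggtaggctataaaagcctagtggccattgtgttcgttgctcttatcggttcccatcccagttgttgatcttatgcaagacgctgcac
DUSP8 holds 2 matches, and JUND and PPP1R15A hold 1 each. JUND had 167 and 69.9 CPM with Polygalae Radix, against 30 and 32.6 CPM with Aucklandiae Radix (log2 fold change 1.91 ± 0.32), so its libraries were uneven. PPP1R15A had 70.7 and 55.2 CPM with Polygalae Radix, against 38.1 and 38.3 CPM with Aucklandiae Radix (0.72 ± 0.14).

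Lists of fast-responding and regulatory genes lay mostly higher with Polygalae Radix. Of 20 immediate early genes tested, 15 were higher and none lower in edgeR's test (median log2 fold change 0.61, against 0.03 over all genes tested). Over all genes 28.1% were higher and 29.9% lower, which is the background for each count below. FOSL1, JUNB, EGR1, IER3 and IER5 did not pass, with log2 fold changes of -0.03 to 0.15. Of 15 circadian clock genes 12 were higher and 1 lower (median 1.06). The lower one was BMAL1, the activator that PER proteins oppose, at 7.42 and 6.45 CPM with Polygalae Radix against 12 and 11.9 CPM with Aucklandiae Radix (-0.79 ± 0.12). PER3, a repressor like PER2, had 18.2 and 15.5 CPM with Polygalae Radix, against 3.41 and 3.19 CPM with Aucklandiae Radix. BHLHE41, another repressor, had 2.08 and 1.13 CPM with Polygalae Radix, against 0.25 and 0.36 CPM with Aucklandiae Radix (2.35 ± 0.51). Its counts were few, so the size of that difference is uncertain. Of 11 long noncoding and snoRNA host RNAs 10 were higher and none lower, SNHG1 among them at 192 and 210 CPM with Polygalae Radix against 75.5 and 73 CPM with Aucklandiae Radix. MALAT1 did not pass (log2 fold change -0.06). Of 15 SR splicing factors and CLK kinases, which phosphorylate them, 9 were higher and 2 lower, and CLK1 had 58.9 and 62.2 CPM with Polygalae Radix against 40.3 and 38.5 CPM with Aucklandiae Radix.

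Lists of housekeeping genes lay lower with Polygalae Radix almost throughout. All 31 proteasome subunit genes were lower (median log2 fold change -1.59), as were all 24 nuclear respiratory chain subunits (median -1.61), all 20 aminoacyl-tRNA synthetases (median -1.53) and all 12 fatty acid synthesis genes (median -0.85). Among all genes 29.9% were lower. PSMD2, of the proteasome's regulatory particle, had 48.3 and 73.9 CPM with Polygalae Radix, against 319 and 306 CPM with Aucklandiae Radix. EPRS1, which charges glutamate and proline tRNAs, had 26.1 and 32.1 CPM with Polygalae Radix, against 240 and 237 CPM with Aucklandiae Radix (log2 fold change -3.03 ± 0.07). ATP5F1B, a subunit of ATP synthase, had 201 and 267 CPM with Polygalae Radix, against 967 and 984 CPM with Aucklandiae Radix. In each case both Polygalae Radix libraries lay far below both Aucklandiae Radix libraries, as the choice of the largest differences in a list favours. Of 18 glycolysis genes 16 were lower and 1, ENO2, higher (median -1.79). ENO1 had 342 and 409 CPM with Polygalae Radix, against 2695 and 2677 CPM with Aucklandiae Radix, and LDHA, lactate dehydrogenase, had 389 and 378 CPM with Polygalae Radix, against 2102 and 2076 CPM with Aucklandiae Radix. ENO2, the neuronal enolase, had 48.1 and 48.5 CPM with Polygalae Radix, against 31.5 and 34.7 CPM with Aucklandiae Radix.

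The lowest synthetase after EPRS1 was AARS1, which charges alanine tRNA, with 67.1 and 63.7 CPM with Polygalae Radix, against 236 and 240 CPM with Aucklandiae Radix (-1.86 ± 0.07). PGK1, a glycolytic kinase, had 73.5 and 111 CPM with Polygalae Radix, against 571 and 561 CPM with Aucklandiae Radix (-2.61 ± 0.16). UQCRC1, of respiratory complex III, had 18.4 and 21.1 CPM with Polygalae Radix, against 102 and 103 CPM with Aucklandiae Radix (-2.37 ± 0.12). These genes were picked as members with the largest differences in their lists, so their separate levels follow from that rule.

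**Figure D2:**
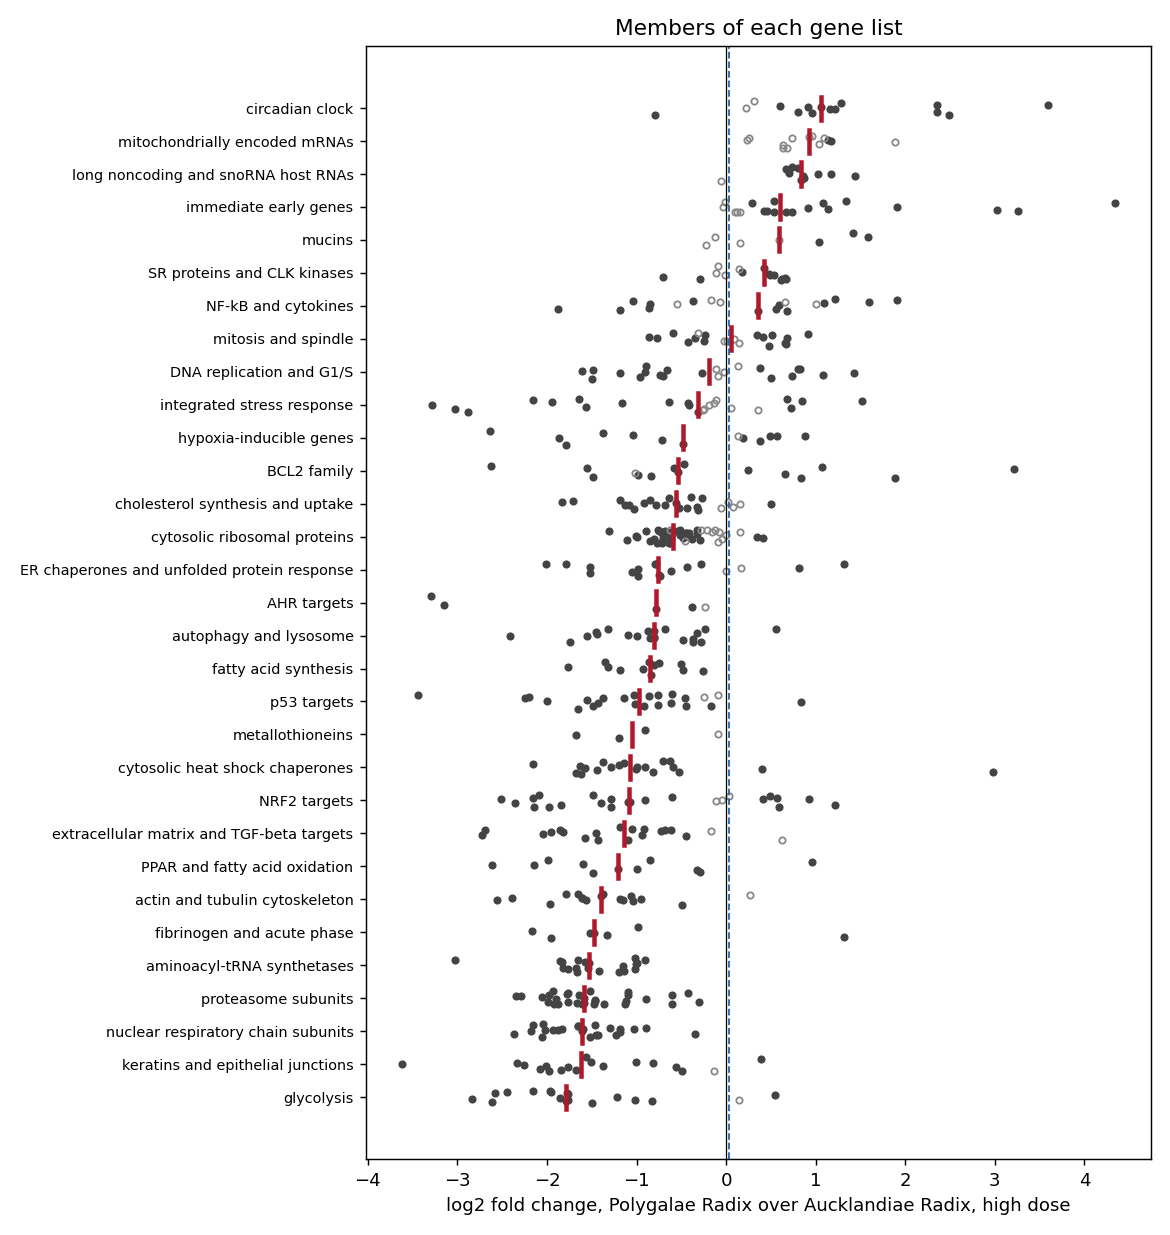
Log2 fold change of Polygalae Radix over Aucklandiae Radix at the high dose for every tested member of 31 gene lists, ordered by their median (red bar); filled points are past the threshold, open points are not, and the dashed line is the median of all genes (0.03). All members of the proteasome, nuclear respiratory chain and aminoacyl-tRNA synthetase lists lie left of 0, while 12 of 15 clock genes lie right of it and past the threshold.

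The structural genes of an epithelial cell were also lower with Polygalae Radix. Of 18 keratin and junction genes 16 were lower and 1, CLDN2, higher (median log2 fold change -1.62). CLDN2 had a log2 fold change of 0.39, which was 0.24 without Polygalae Radix high dose replicate 3 (adjusted p = 0.205 in edgeR's test). KRT8 had 512 and 442 CPM with Polygalae Radix, against 2415 and 2368 CPM with Aucklandiae Radix, and JUP, plakoglobin, had 111 and 67.2 CPM with Polygalae Radix, against 374 and 376 CPM with Aucklandiae Radix. The epithelial marker genes KRT8, KRT18, KRT19, EPCAM and CDH1, 5 of 5 lower, summed to 1134 and 1097 raw CPM with Polygalae Radix and 4499 and 4376 raw CPM with Aucklandiae Radix. Of 17 actin and tubulin genes 16 were lower and none higher, with TUBA1C not past the threshold (0.27). Of 20 extracellular matrix and TGF-β target genes 18 were lower and none higher. VIM, vimentin, had 288 and 250 CPM with Polygalae Radix, against 1066 and 1031 CPM with Aucklandiae Radix. Tubulin genes have close paralogs, among which the estimated counts divide shared reads.

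Cytosolic ribosomal protein genes were lower less uniformly. Of 50 genes 37 were lower, 2 (RPS2 and RPL13A) higher and 11 not past the threshold, with a median log2 fold change of -0.59. In class 1 the count lower was 28 and the median -0.39. RPL14 had 131 and 176 CPM with Polygalae Radix, against 315 and 302 CPM with Aucklandiae Radix, while RPS2 had 2295 and 1827 CPM with Polygalae Radix, against 1500 and 1608 CPM with Aucklandiae Radix. The call of RPS2 was lost without Polygalae Radix high dose replicate 2 (log2 fold change 0.22, adjusted p = 0.184 in edgeR's test), and that of RPL13A without replicate 3 (0.26, adjusted p = 0.099). The mitochondrially encoded mRNAs differed mainly in 1 library: MT-CO1 had 34821 and 13624 CPM with Polygalae Radix, the first in replicate 2, against 10441 and 11159 CPM with Aucklandiae Radix. Of 13 such mRNAs 2 (MT-CO1 and MT-ND1) were higher, with a list median of 0.93, but none passed in class 1, where the median was -0.02.

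Most chaperone genes were lower with Polygalae Radix, while single regulators were higher. Of 20 cytosolic heat shock chaperone genes 18 were lower with Polygalae Radix and 2, CRYAB and HSF1, higher. HSP90AA1 had 374 and 310 CPM with Polygalae Radix, against 1523 and 1532 CPM with Aucklandiae Radix (log2 fold change -2.16 ± 0.08). CRYAB, a small heat shock protein, had 6.46 and 4.19 CPM with Polygalae Radix, against 0.68 and 0.65 CPM with Aucklandiae Radix, and its means at the low dose (5.62 CPM with Polygalae Radix, 5.26 CPM with Aucklandiae Radix) and in vehicle (5.82 CPM) were near those with Polygalae Radix. HSF1, the heat shock transcription factor, had 131 and 79.2 CPM with Polygalae Radix, against 78.2 and 80.9 CPM with Aucklandiae Radix, so its call rests on replicate 2, without which the log2 fold change was -0.02 (adjusted p = 0.948). Of 18 endoplasmic reticulum chaperone and unfolded protein response genes 14 were lower. HSPA5 (BiP) had 173 and 175 CPM with Polygalae Radix, against 600 CPM in both Aucklandiae Radix libraries. The 2 higher genes were ERN1, the stress sensor IRE1, and XBP1, the factor whose mRNA it splices. ERN1 had 39 and 42.2 CPM with Polygalae Radix against 16.2 and 16.3 CPM with Aucklandiae Radix. XBP1 had 71.4 and 60.1 CPM with Polygalae Radix against 34.8 and 39.8 CPM with Aucklandiae Radix. From the low to the high dose XBP1 changed by 0.18 log2 units with Polygalae Radix, not past the threshold. With Aucklandiae Radix it fell by 0.61 and passed.

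In the integrated stress response cells slow translation and raise ATF4. Of its 23 genes 12 were lower and 4 higher with Polygalae Radix (median log2 fold change -0.31). The 4 higher genes were the transcription factors ATF4, ATF3 and CEBPB and the phosphatase subunit PPP1R15A. ATF4 had 393 and 303 CPM with Polygalae Radix, against 190 and 196 CPM with Aucklandiae Radix (0.85 ± 0.16). The strongest lower genes were enzymes of amino acid synthesis, known targets of ATF4, and CHAC1. PHGDH, the entry enzyme of serine synthesis, had 5.49 and 6.22 CPM with Polygalae Radix, against 42.3 and 44.4 CPM with Aucklandiae Radix (-2.88 ± 0.11), and PSAT1, the next enzyme, had 45.3 and 58.8 CPM with Polygalae Radix, against 236 and 231 CPM with Aucklandiae Radix. ATF4 mRNA was higher in the same libraries in which ASNS, PHGDH and PSAT1 were lower.

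Among 24 NRF2 target genes, which defend against electrophiles, 15 were lower and 6 higher with Polygalae Radix. HMOX1, heme oxygenase, had 128 and 116 CPM with Polygalae Radix, against 652 and 602 CPM with Aucklandiae Radix (log2 fold change -2.36 ± 0.08). NQO1 had 305 and 433 CPM with Polygalae Radix, against 2073 and 2121 CPM with Aucklandiae Radix. Levels outside the high dose differed for the 2 genes. HMOX1 averaged 160 CPM at the low dose of Polygalae Radix, 167 CPM at that of Aucklandiae Radix and 161 CPM in vehicle, far below its Aucklandiae Radix high dose level. NQO1 averaged 1761 CPM at the low dose of Polygalae Radix, 1750 CPM at that of Aucklandiae Radix and 1535 CPM in vehicle, nearer its Aucklandiae Radix high dose level. The 6 higher genes were OSGIN1, SRXN1, FTH1, GCLC, FTL and ABCC2. SRXN1, sulfiredoxin, had 855 and 1125 CPM with Polygalae Radix, against 508 and 536 CPM with Aucklandiae Radix. Of 5 AHR targets 4 were lower. CYP1A1 was among them, with 0.51 and 0.86 CPM with Polygalae Radix against 6.86 and 7.32 CPM with Aucklandiae Radix. Its low dose means were 0.99 CPM with Polygalae Radix and 1.21 CPM with Aucklandiae Radix. From the low to the high dose 3 of the 5 targets rose and 1 fell with Polygalae Radix (median log2 fold change 0.44). With Aucklandiae Radix 4 rose and 1 fell (median 0.96). Over all genes 27.9% rose with Polygalae Radix and 9.12% with Aucklandiae Radix.

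Of 24 p53 target genes 21 were lower and 1, PMAIP1, higher with Polygalae Radix (median log2 fold change -0.97). DDB2, a DNA damage sensor, had 20.2 and 17.1 CPM with Polygalae Radix, against 75.1 and 73.6 CPM with Aucklandiae Radix, and 50.7 CPM in vehicle. Of 15 BCL2 family genes 6 were higher and 8 lower, beside 28.1% higher and 29.9% lower over all genes. One of the 6, MCL1, had a log2 fold change of 0.24, which was 0.03 without Polygalae Radix high dose replicate 3 (adjusted p = 0.852 in edgeR's test). BAX, which permeabilises mitochondria, had 68.3 and 71 CPM with Polygalae Radix, against 201 and 190 CPM with Aucklandiae Radix. BCL2, which blocks it, had 8.08 and 9.21 CPM with Polygalae Radix, against 2.31 and 2.37 CPM with Aucklandiae Radix. HRK, a death-promoting member, had 1.58 and 2.53 CPM with Polygalae Radix, against 0.14 and 0.29 CPM with Aucklandiae Radix (3.21 ± 0.43). The Aucklandiae Radix libraries held few counts of HRK, so the size of its difference is uncertain. BCL2L11 (BIM), also a death-promoting member, had 43.6 and 39.6 CPM with Polygalae Radix, against 19.7 and 19.9 CPM with Aucklandiae Radix. Of 21 autophagy and lysosome genes 20 were lower and 1, UVRAG, higher. CTSD, cathepsin D, had 54.3 and 52.1 CPM with Polygalae Radix, against 276 and 290 CPM with Aucklandiae Radix.

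Of 20 mitosis and spindle genes 8 were higher, 7 lower and 5 not past the threshold (median log2 fold change 0.05). Over all genes 28.1% were higher and 29.9% lower, so the counts of this list lay near the background, and its genes are given singly. AURKA, a mitotic kinase, had 166 and 148 CPM with Polygalae Radix, against 82.5 and 84.2 CPM with Aucklandiae Radix, while TOP2A, topoisomerase II, had 293 and 319 CPM with Polygalae Radix, against 518 and 527 CPM with Aucklandiae Radix. Of 22 replication and G1/S genes 7 were higher and 11 lower. The replicative helicase subunits MCM2, MCM5 and MCM6 were lower, MCM6 at 36.7 and 47.1 CPM with Polygalae Radix against 129 CPM in both Aucklandiae Radix libraries. CCNE2 (cyclin E2), CDT1 and the E2F factors E2F1 and E2F2 were higher, CCNE2 at 13 and 13.4 CPM with Polygalae Radix against 4.98 and 4.85 CPM with Aucklandiae Radix. The NF-κB and cytokine list, with 8 higher and 6 lower of 19, also lay near the background. In it the chemokine CXCL2 had 6.1 and 5.92 CPM with Polygalae Radix against 2.17 and 1.82 CPM with Aucklandiae Radix, and the apoptosis inhibitor BIRC3 had 28 and 30.6 CPM with Polygalae Radix against 112 and 104 CPM with Aucklandiae Radix. The median of that list was 0.36, and 0.03 in class 1. The macrophage genes CD14 and CD68, which stand on the leukocyte list, were lower, and the summed raw level of that list was 7.65 and 3.09 CPM with Polygalae Radix and 25.7 and 23.6 CPM with Aucklandiae Radix. The leukocyte-defining genes PTPRC, CD3E and MS4A1 were at 0 in all 4 libraries, as given above.

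The remaining lists were mixed or lower. Of 23 cholesterol synthesis and uptake genes 18 were lower, beside 29.9% of all genes. Of 11 PPAR and fatty acid oxidation genes 10 were lower and 1, PDK4, higher: HADHA, of the mitochondrial β-oxidation enzyme, had 48.7 and 45 CPM with Polygalae Radix against 287 and 283 CPM with Aucklandiae Radix. Of 13 hypoxia-inducible genes 5 were higher and 7 lower, beside 28.1% higher and 29.9% lower over all genes. Of 4 metallothionein genes tested 3 were lower, and of 7 fibrinogen and acute phase genes 6 were lower and 1, LBP, higher. LBP had a log2 fold change of 1.32, which was 1.07 without Polygalae Radix high dose replicate 3 (adjusted p = 0.06 in edgeR's test). From the low to the high dose all 7 of these genes, LBP included, fell with Polygalae Radix, beside 29.1% of all genes. With Aucklandiae Radix 6 of the 7 fell, beside 9.33% of all genes. Of 7 mucin genes tested 3 were higher and none lower: MUC5AC, a secreted airway mucin, had 177 and 85.4 CPM with Polygalae Radix, against 50 and 47.5 CPM with Aucklandiae Radix, and 309 CPM in vehicle. The mucin median was 0.59, and 0.08 in class 1, where 2 were higher.

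Each extract was then set against its own low dose, with no library shared between the 2 comparisons, which shows the change within each extract. With Polygalae Radix 10491 genes (57%) differed between the high and the low dose, 5138 higher (27.9%) and 5353 lower (29.1%) at the high dose. With Aucklandiae Radix 3394 genes (18.4%) differed, 1678 higher (9.12%) and 1716 lower (9.33%). The Aucklandiae Radix count was 2083 to 2222 when any 1 of its 4 libraries was left out, 1844 with set 11 alone and 5527 with only the libraries compared, so the counts for this extract here and in the overlaps that follow depend on the libraries in the fit. The housekeeping lists mostly fell with Polygalae Radix, and fewer of their genes passed with Aucklandiae Radix. All 31 proteasome genes fell with Polygalae Radix and 1 rose with Aucklandiae Radix. Of the glycolysis genes 15 fell with Polygalae Radix and 2 with Aucklandiae Radix. All 24 nuclear respiratory chain subunits fell with Polygalae Radix and 2 with Aucklandiae Radix. All 20 aminoacyl-tRNA synthetases fell with Polygalae Radix and 6 with Aucklandiae Radix. All 12 fatty acid synthesis genes fell with Polygalae Radix and 6 with Aucklandiae Radix, beside 9.33% of all genes. The p53 targets went different ways, with 15 fallen and 2 risen with Polygalae Radix and none fallen and 18 risen with Aucklandiae Radix. The autophagy and lysosome list showed 14 fallen and 1 risen with Polygalae Radix, and 1 fallen and 14 risen with Aucklandiae Radix. Mitosis genes fell with both extracts, 14 of 20 with Polygalae Radix and 20 of 20 with Aucklandiae Radix.

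Of the genes called in either extract, 2407 were called in both. They made up 22.9% of the Polygalae Radix calls, beside 18.4% of all genes called with Aucklandiae Radix. They made up 70.9% of the Aucklandiae Radix calls, beside 57% of all genes called with Polygalae Radix. Of the 2407 genes 1446 moved the same way and 961 opposite ways. Among the latter 580 fell with Polygalae Radix and rose with Aucklandiae Radix, and 381 did the reverse. The difference of the 2 dose effects, tested as an interaction, passed for 8436 genes (45.9%), 3776 of them (20.5%) more positive with Polygalae Radix and 4660 (25.3%) more negative. NR4A3 rose by 2.96 log2 units with Polygalae Radix (adjusted p = 5.04e-22 in edgeR's test) and fell by 1.38 with Aucklandiae Radix (adjusted p = 1.42e-09), a difference of 4.34 ± 0.20 (adjusted p = 3.39e-21). PER2 rose by 1.51 with Polygalae Radix and fell by 0.99 with Aucklandiae Radix. In the other direction FDXR fell by 2.54 with Polygalae Radix and rose by 0.80 with Aucklandiae Radix, and CPM, the gene for carboxypeptidase M, fell by 1.37 with Polygalae Radix and rose by 1.34 with Aucklandiae Radix. MVP fell by 2.96 with Polygalae Radix and rose by 0.58 with Aucklandiae Radix.

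**Figure D3:**
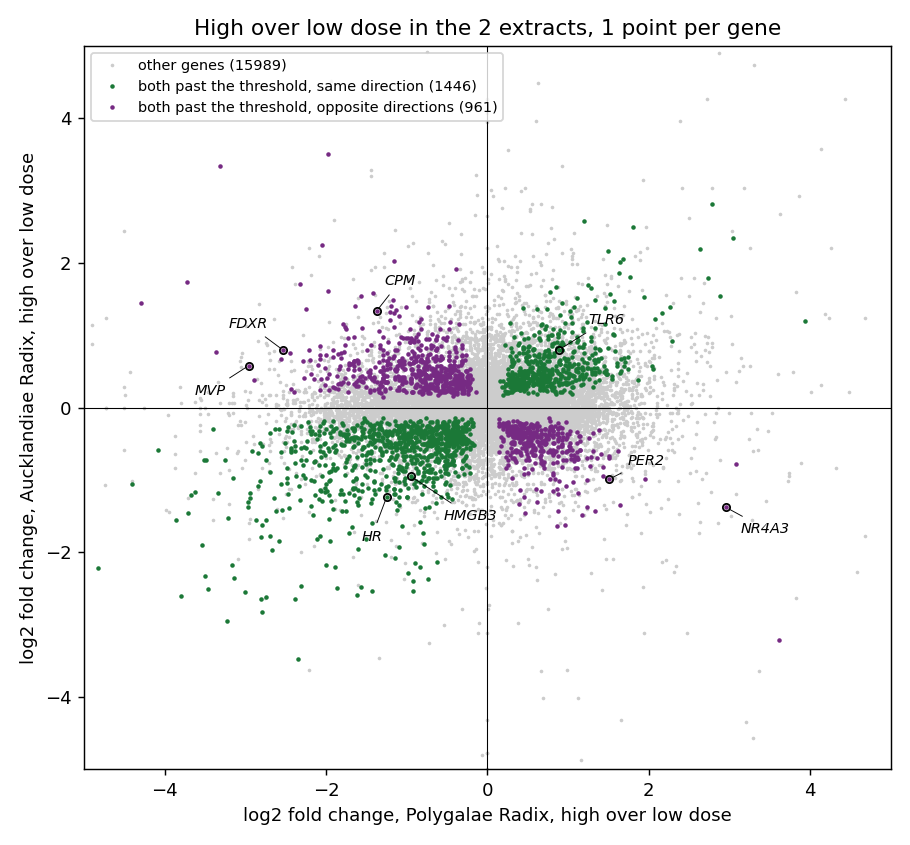
Log2 fold change of the high over the low dose with Polygalae Radix (x axis) and with Aucklandiae Radix (y axis), 1 point per gene, with genes past the threshold in both coloured by whether the directions match (1446) or oppose (961), and 114 genes beyond 5 log2 units not shown. NR4A3 and PER2 lie at the lower right and MVP, FDXR and CPM at the upper left.

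Some genes changed by like amounts with both extracts. By the rule that both effects passed in the same direction and the 95% interval of their difference lay within 0.5 log2 units, 309 genes with at least 4 log2 CPM qualified. HMGB3, a chromatin protein, had 99.3 and 106 CPM at the high dose of Polygalae Radix and 92.8 and 107 CPM at that of Aucklandiae Radix, with low dose means of 200 CPM with Polygalae Radix and 193 CPM with Aucklandiae Radix. It fell by 0.95 log2 units with each extract. HR, a nuclear receptor corepressor, fell by 1.25 with Polygalae Radix and by 1.24 with Aucklandiae Radix. TLR6, a Toll-like receptor, rose by 0.89 with Polygalae Radix and by 0.80 with Aucklandiae Radix, and RELB, an NF-κB subunit, by 0.70 with Polygalae Radix and by 0.74 with Aucklandiae Radix. Of the 12 genes named by that rule 3 still differed between the extracts at the high dose in edgeR's test, SNAP25 with a log2 fold change of 0.32 (adjusted p = 0.000272), MATN2 with -0.21 (adjusted p = 0.0438) and ISG20 with -0.23 (adjusted p = 0.0483). HR and TLR6 depended on the Polygalae Radix library used. The high dose difference of HR was -0.39 in class 1, which holds replicate 3, and 0.05 without replicate 3. That of TLR6 was 0.30 in class 1 and -0.12 without replicate 3.

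At the low dose 0 of 18396 genes (0.0%) differed between the extracts in edgeR's test, with 292 at an unadjusted p under 0.05 and 0 in the DESeq2 Wald test. With 2 libraries per extract this does not show that the levels were equal. The spread was shared with less even groups. The median gene differed by 0.0916 and 0.0836 log2 units between replicates at the low doses of Polygalae and Aucklandiae Radix. At the high dose of Polygalae Radix that value was 0.23. At the medium dose 2491 genes (13.5%) differed, 1096 (5.96%) higher and 1395 (7.58%) lower with Polygalae Radix, and 156 by at least 2-fold. Polygalae Radix medium dose replicate 2 also had ENSG00000282955 above 10 CPM, and without it 766 genes passed, 148 higher and 618 lower. Of the high dose differences 2318 were also called in the same direction at the medium dose. They made up 21.7% of the high dose calls, beside 13.5% of all genes called at the medium dose in either direction. They made up 93.1% of the medium dose calls, beside 58.1% of all genes called at the high dose in either direction. Replicate 2 had ENSG00000282955 above 10 CPM in both Polygalae Radix groups, and across genes the replicate differences of these groups were correlated (r = 0.583). NR4A3 had 20.2 and 15.7 CPM with Polygalae Radix at the medium dose, against 9.1 and 7.17 CPM with Aucklandiae Radix. Of the aminoacyl-tRNA synthetases 16 of 20 were lower with Polygalae Radix (median log2 fold change -0.50), and of the proteasome subunits 22 of 31 (median -0.45). With only the 4 medium dose libraries in the fit no gene passed in edgeR's test, and 1891 had an unadjusted p under 0.05.

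**Figure D4:**
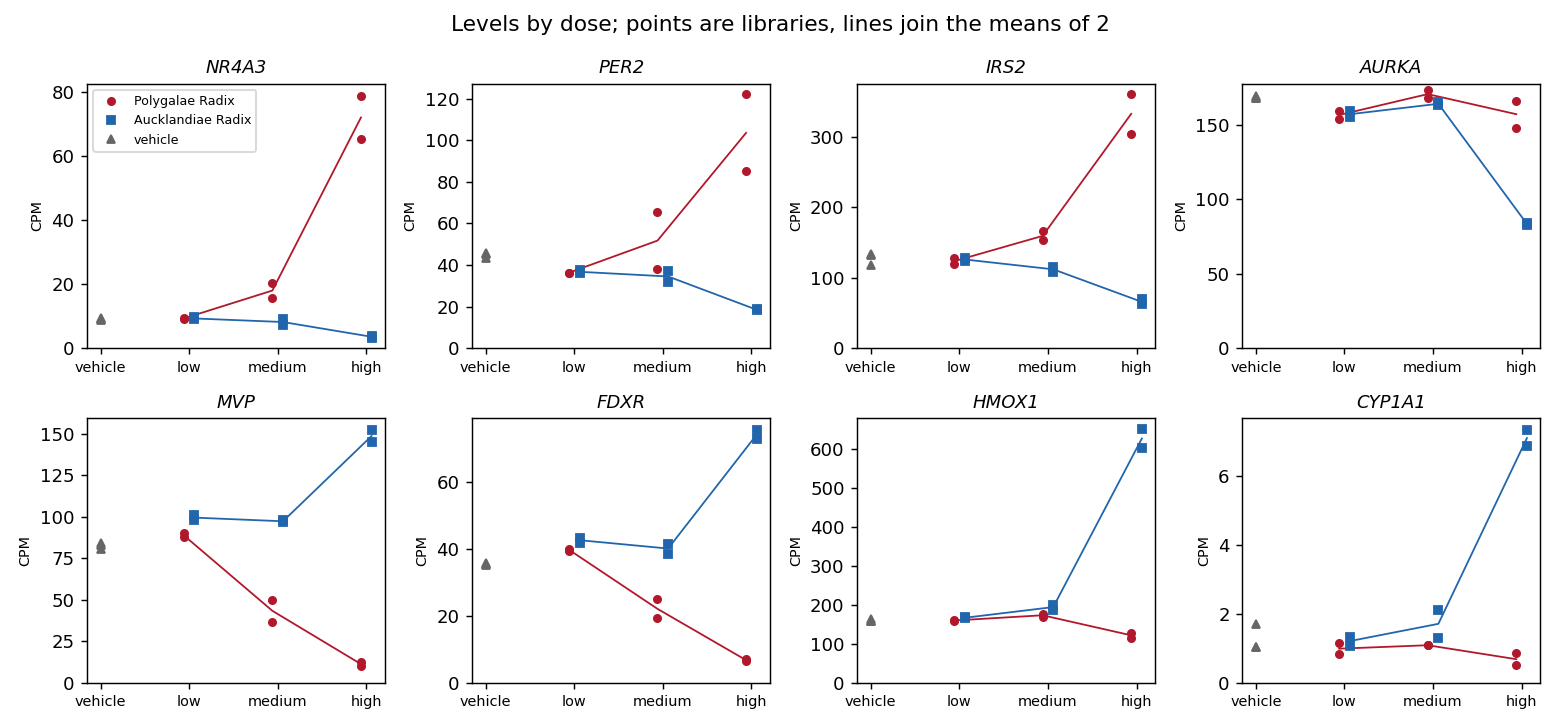
CPM of 8 genes in vehicle and at the low, medium and high dose of each extract, with points for libraries (circles for Polygalae Radix, squares for Aucklandiae Radix, triangles for vehicle) and lines through the means of 2 libraries. NR4A3, PER2 and IRS2 part upward with Polygalae Radix and downward with Aucklandiae Radix, AURKA is lowest at the high dose of Aucklandiae Radix, and HMOX1 and CYP1A1 are highest there.

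Because the lower lists hold abundant mRNAs, genes were also divided into 5 level groups of equal size by their mean CPM in the 4 low dose libraries, a breakdown chosen after those lists had been seen. In the highest level group (median 106 CPM) 54.4% of genes were lower and 23.8% higher with Polygalae Radix, with a median log2 fold change of -0.32. In the lowest level group (median 0.306 CPM) 7.85% were lower and 14.6% higher, with a median of 0.29. The medians of the glycolysis, proteasome, respiratory chain and synthetase lists, from -1.53 to -1.79, lay below that of the highest level group. Those of the fatty acid synthesis genes (-0.85) and the cytosolic ribosomal protein genes (-0.59) lay nearer to it. The amount of RNA per cell was not measured, so a gene that is lower here has a smaller share of the library.

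**Figure D5:**
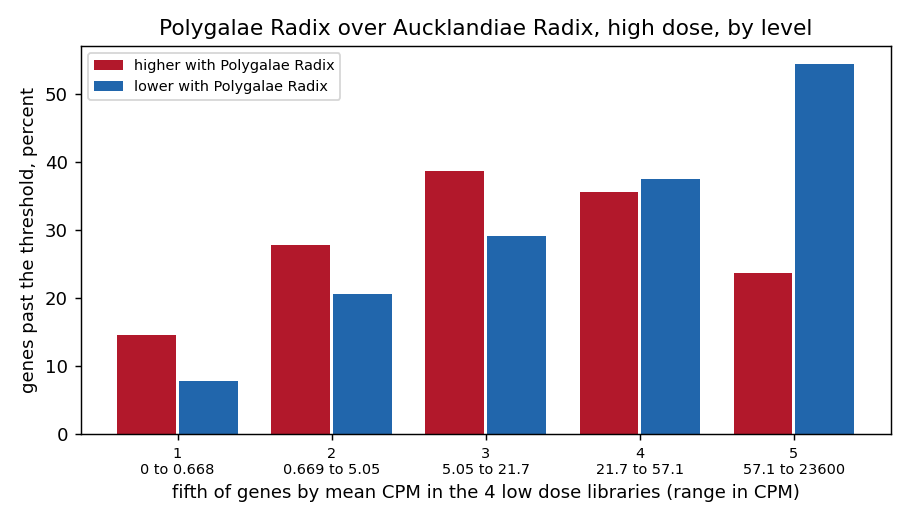
Percent of genes past the threshold in each of 5 equal groups by mean CPM in the 4 low dose libraries, higher (red, left bars) and lower (blue, right bars) with Polygalae Radix at the high dose. The lower share is 7.85% in the lowest group and 54.4% in the highest, where the higher share is 23.8%.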

How the data were processed

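RNA sequencing was measured in 60 A549 libraries prepared with a directional kit, per the labels. The authors deposited expected counts per Ensembl gene for 60675 genes. The submitters' processing notes name RSEM 1.3.3 and STAR 2.7.3a, with Trim Galore 0.6.5 and FastQC 0.11.9. The sources used here name no strand setting for the counting; the notes name the build GRCh38.

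Expected counts were rounded to whole numbers and fitted in edgeR (version 4.0.16, on R 4.3.3 with limma 3.58.1) after TMM normalisation and filterByExpr: 57 libraries in 22 groups, 18396 genes, 35 residual degrees of freedom. The quasi-likelihood F-test was two-sided, with Benjamini-Hochberg adjustment over the whole table and calls at an adjusted p under 0.05. Errors of log2 fold changes are the absolute value divided by the square root of F. Sampling noise at these depths bears mainly on genes near 1 CPM.

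Gene types and positions come from GENCODE 29. The contrast, the 31 gene lists, the rules and the alternatives were chosen with earlier results of these data known. Genes were named by rule: the 12 genes called with the highest and the 12 with the lowest log2 fold change, given non-overlapping libraries and at least 4 log2 CPM over the 4 libraries or in the higher group; in each list the 4 largest members in the main direction and every member past the threshold in the other; the 8 opposite dose effects with the largest difference per direction; and the 6 matching ones per direction. Markers and list members that did not pass are named beside their counts. A few genes that these rules name are not reported here. The division by level, that by gene type and the promoters printed for a motif were chosen after values had been seen. Alternatives were the DESeq2 1.42.0 Wald test and size factors, no filter, a replicate block, library set 11 alone, only the libraries compared, offsets for GC content and length, a 2-fold minimum, each library left out, and 2 settings for the library class (ENSG00000282955 above or below 10 CPM). Bulk counts have no molecular identifiers here, so precision rests on the spread between libraries.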

Additional observations from a re-analysis of the deposited data

Results flagged for a closer look

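The change from the low to the high dose was not the same in the 2 extracts for 8436 genes, by edgeR's test of the difference itself (Benjamini-Hochberg adjusted p under 0.05). The genes below moved in opposite directions, each past the threshold in both extracts, and had a mean of at least 4 log2 CPM over the 4 high dose libraries or over the 2 of the higher extract. Each value is the Polygalae Radix change minus the Aucklandiae Radix change in log2 units. Among such genes the largest positive difference was 4.34 for NR4A3, and DUSP8 followed with 3.86. It was 3.00 for NR4A1, 2.95 for DOC2B, 2.76 for LYPD1, 2.5 for PER2, 2.37 for IRS2 and 2.30 for TAFA5. The most negative was -3.54 for MVP, and FDXR followed with -3.34. It was -3.28 for ITGB4, -3.01 for SULT2B1, -2.92 for SQOR, -2.75 for RPS27L and -2.71 for the gene CPM. These genes were chosen for that difference, so their sizes are a description. Of the genes that met the same conditions there were 708.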

How the results depend on the processing

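The high dose count of 10684 genes stayed within 1.5 times under 13 alternative settings and came to 3886 with a minimum of 2-fold. With that minimum the dose effect counted 3632 genes with Polygalae Radix and 519 with Aucklandiae Radix, the difference of dose effects 3462 and the medium dose comparison 156. The Aucklandiae Radix dose effect, 3394 genes, came to 1844 with set 11 alone, 1957 with the replicate block, 5527 with only the libraries compared and 2083 to 2222 with 1 library left out. The medium dose comparison, 2491 genes, came to 1554 in class 1, 573 with set 11 alone, 655 with the replicate block, 0 with only the libraries compared (1891 at an unadjusted p under 0.05) and 766 to 4797 with 1 library left out. The low dose comparison came to 50 genes without a filter, 1 with only the libraries compared and 0 to 1 with 1 library left out. Without a filter the genes added have few counts. The cause of these shifts was not tested. HSF1 changed sign to -0.01 in class 1 and to -0.02 without Polygalae Radix high dose replicate 2, and was 0.70 without replicate 3. Of 206 named genes 172 kept direction and side of the threshold in every setting run. Besides HSF1, calls were lost in some settings for MCL1, CLDN2, RPS2, RPL13A, LBP, MT-CO1, MT-ND1, MUC5B, MUC3A, CLK2, SRSF7, SNHG5, CCNB1, CENPE, TPX2, BUB1, NFKBIE, VEGFA, KDM3A, SERPINA1, SERPINA3, SNAP25, ISG20 and MATN2. The replicate numbers did not pair the extracts (r = -0.067 between the high dose groups, 2 numbers only), while r was 0.583 between the high and medium dose of Polygalae Radix. With the replicate block 9744 genes passed at the high dose. Depth limits the genes near 1 CPM.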

Other observations

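Gene classes differed at the high dose, a breakdown made after the values had been seen. Over 14039 protein-coding genes tested the median log2 fold change of Polygalae Radix over Aucklandiae Radix was -0.07, with 28.9% of genes higher and 37.0% lower in edgeR's test. Over 211 sense intronic RNAs, which lie within the introns of other genes, it was 0.65, with 35.1% higher and 1.42% lower. Antisense RNAs had a median of 0.39 and long intergenic RNAs one of 0.36. In class 1 the medians were -0.09 for protein-coding genes, 0.73 for sense intronic, 0.33 for antisense and 0.30 for long intergenic RNAs. From the low to the high dose the sense intronic median was 0.70 with Polygalae Radix and 0.02 with Aucklandiae Radix. A sense intronic RNA lies on the strand of its host gene, so its reads and unspliced reads of the host cannot be told apart. For antisense RNAs no strand setting of the counting is named in the sources.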
